A study of Mus musculus with 15 samples.

Results

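The effect of adding a MEK inhibitor (MEKi) to an agonist antibody (Ab) against CD40 was followed in whole PDA30364 tumors, in 8 of the 15 arrays of the series. These were the 4 arrays of tumors given MEKi plus CD40 Ab (combination) and the 4 arrays of tumors given CD40 Ab with vehicle. PDA30364 is a mouse pancreatic ductal adenocarcinoma (PDA) cell line from a genetically engineered model. All 8 tumors grew from PDA30364 cells placed in Matrigel under the flank skin of C57BL/6-Ly5.1 mice aged 6 to 12 weeks. Combination mice received daily GDC-0623, an allosteric MEKi, at 30 mg/kg, whereas CD40 Ab mice received its vehicle (MCT). Both groups received CD40 Ab on treatment days 3, 5 and 7 and 1 day before collection on day 26 after inoculation, so that the antibody is shared and MEKi is what differs. The other 7 arrays, 3 of MEKi tumors with control IgG and 4 of control tumors with vehicle and control IgG, are used here for context. Each array holds the RNA of 1 tumor, with log2 signals for 45037 probe sets. Values per gene are those of 1 probe set for each of 18193 genes.

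MEK is the kinase that activates ERK, and this cascade is active in most pancreatic cancers. Active ERK switches on its own brakes, the dual-specificity phosphatases (Dusp) and Sprouty (Spry) proteins, together with transcription factors such as Fosl1 and Etv5 that act in growth. CD40 is a receptor of antigen-presenting cells that signals through NF-kB and licenses dendritic cells and macrophages to activate T cells.

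Of 45037 probe sets, 2019 differed between combination and CD40 Ab tumors at a limma adjusted p under 0.05. This was 4.48%. They comprised 1144 that were higher (2.54%) and 875 that were lower (1.94%) in the combination. After median centring of the arrays, 1036 were higher and 1248 lower, so the balance of rises and falls depends on the scaling. Array medians were 5.21 to 5.24 in combination and 5.16 to 5.20 in CD40 Ab tumors (exact permutation p = 0.0286, two-sided, adjusted p = 0.1001 over 7 array measures). Among 18193 genes, 1131 passed (6.22%), of which 672 rose (3.69%) and 459 fell (2.52%), and with a change of at least 2-fold 233 rose (1.28%) and 53 fell (0.291%). Counts of list members below are to be read beside the shares of all genes that rose (3.69%) or fell (2.52%). The median log2 difference over all genes was -0.033, with 7454 genes above 0 and 10633 below. The counts depended on single tumors. Leaving out 1 array at a time gave 933 to 1908 probe sets, with the lowest number without combination replicate 2 (933), CD40 Ab replicate 2 (936) or combination replicate 4 (997). All 4 combination tumors carry tumor numbers under 10000, whereas CD40 Ab tumors 1 and 2 lie under and tumors 3 and 4 above that number. Against CD40 Ab tumors 1 and 2 alone, 973 probe sets passed. Skeletal muscle genes separated the groups without overlap, and a fit of all 15 arrays with muscle and skin levels as covariates called 292 probe sets. Where that fit turned the direction of a list, its median with these covariates is given beside the list. The 18S rRNA control probe sets averaged 13.24 ± 0.11 in combination and 12.99 ± 0.10 in CD40 Ab tumors (SD, n = 4 each, exact permutation p = 0.0286, two-sided, the smallest that 4 against 4 can give, adjusted p = 0.1001 over 7 array measures).

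Of 9 feedback genes of ERK, 4 fell in the combination, compared with 2.52% of all genes. Dusp5, a nuclear phosphatase of ERK, had signals of 7.28, 7.37, 7.27 and 7.36 in combination tumors, against 8.37, 8.51, 7.88 and 7.94 in CD40 Ab tumors. Its log2 difference was -0.85 ± 0.14 (SE, adjusted p = 0.0119). Dusp6, the cytoplasmic ERK phosphatase, had 10.35, 10.37, 10.18 and 10.35 in combination tumors, against 10.77, 10.97, 10.79 and 10.78 in CD40 Ab tumors (log2 difference -0.52 ± 0.073, adjusted p = 0.00741). For both genes the 2 groups did not overlap. Dusp4 fell by 0.70 ± 0.13 (adjusted p = 0.0223) and Spry2, an inhibitor of receptor tyrosine kinase signaling, fell by 0.58 ± 0.076 (adjusted p = 0.00524). The call for Dusp4 was lost without combination replicate 1 or 2.

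None of the 9 rose, and the median log2 difference was -0.45. With muscle and skin levels as covariates 2 passed and the median was -0.75. In 7 of 9 the combination tumors lay below all CD40 Ab tumors, compared with 10.1% of all genes. Spred1 (-0.45, adjusted p = 0.0524), Spred2 (-0.39, adjusted p = 0.0544) and Spry4 (-0.43, adjusted p = 0.0800) did not pass. The mean level of the 9 genes ranged from 7.72 to 7.83 in combination and from 8.10 to 8.40 in CD40 Ab tumors.

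Some transcription factors downstream of ERK changed in the same comparison. Fosl1, an AP-1 subunit induced by sustained ERK activity, had signals of 7.50, 8.10, 8.11 and 8.09 in combination tumors, against 9.05, 9.15, 8.79 and 8.75 in CD40 Ab tumors (log2 difference -0.98 ± 0.15, adjusted p = 0.0105). Etv5 (-0.75, adjusted p = 0.00205) and Etv4 (-0.55, adjusted p = 0.00549), ETS factors of the PEA3 group, and the immediate early factor Egr1 (-0.89, adjusted p = 0.0127) also fell. Jun was the exception and rose by 0.40 ± 0.089 (adjusted p = 0.0390), a call that 7 of 8 single-array omissions removed. In all, 4 of 15 factors fell and 1 rose, compared with 2.52% and 3.69% of all genes, with a list median of -0.10. Cyclin D1 (Ccnd1) had 11.75, 11.64, 11.62 and 11.67 in combination tumors, against 11.64, 11.66, 11.64 and 11.72 in CD40 Ab tumors, a log2 difference of 0.01 ± 0.058. Myc had a log2 difference of -0.33 ± 0.11 (adjusted p = 0.132). Of 14 G1 genes, Cdkn2b, an inhibitor of the cyclin D kinases, was the 1 that passed (-0.34, adjusted p = 0.0375).

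**Figure D1:**
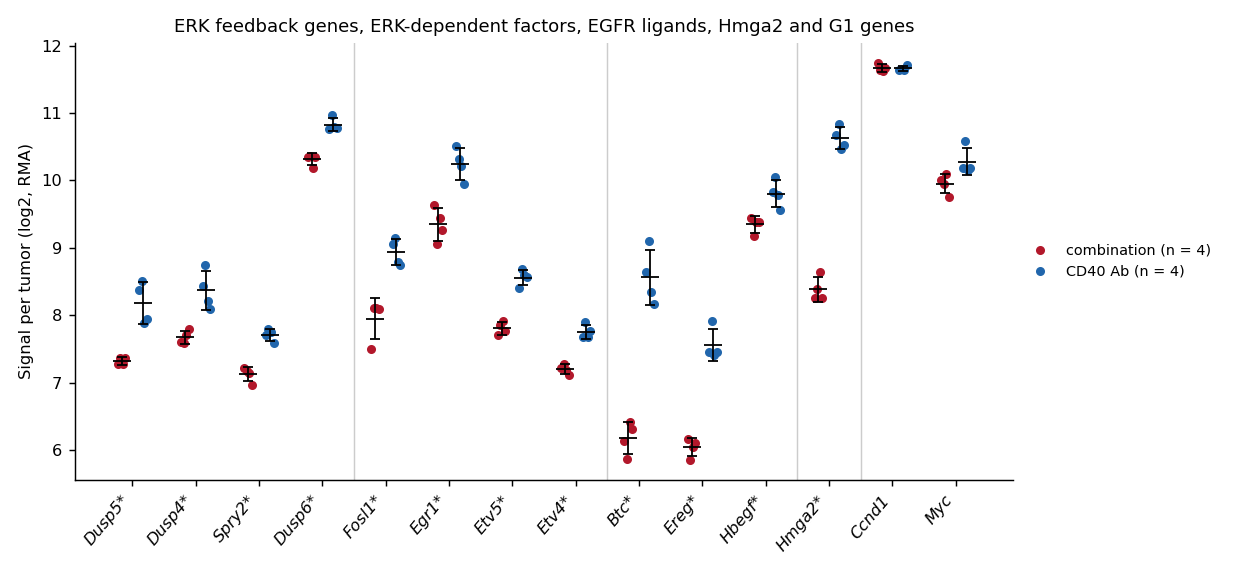
Log2 signal (y axis) of ERK feedback genes, ERK-dependent factors, EGFR ligands, Hmga2 and 2 G1 genes (x axis) in combination (red) and CD40 Ab (blue) tumors. Points are single tumors, bars show mean ± SD, and an asterisk marks an adjusted p under 0.05. Combination tumors lie below CD40 Ab tumors in every gene shown except Ccnd1, and Myc does not pass.

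Among EGF receptor ligands, 3 fell. Betacellulin (Btc) had signals of 6.13, 5.86, 6.41 and 6.31 in combination tumors, against 8.64, 9.10, 8.34 and 8.16 in CD40 Ab tumors. This is a 5.21-fold lower level (log2 difference -2.38 ± 0.20, adjusted p = 0.000962). Epiregulin (Ereg) had 6.16, 5.85, 6.04 and 6.10 in combination tumors, against 7.45, 7.91, 7.41 and 7.46 in CD40 Ab tumors (-1.52 ± 0.12, adjusted p = 0.000749). Both groups of values were far apart relative to their spread. Hbegf was lower by less (-0.46 ± 0.11, adjusted p = 0.0459) and lost its call in 7 of 8 single-array omissions. Of 9 receptors and ligands of this family, these 3 fell, compared with 2.52% of all genes. None rose, and 3 had a difference above 0. In the fit with muscle and skin covariates none of the 9 passed (Btc -1.62, adjusted p = 0.127, and Ereg -1.15, adjusted p = 0.0592).

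Btc stood among the 12 largest falls in the comparison. The lowest adjusted p, shared with Kcnab1, belonged to Hmga2, an architectural chromatin protein of embryonic tissue and many tumors. Hmga2 had signals of 8.25, 8.39, 8.64 and 8.25 in combination tumors, against 10.68, 10.84, 10.47 and 10.53 in CD40 Ab tumors (log2 difference -2.25 ± 0.11, adjusted p = 9.61e-05). Kcnab1, a subunit of voltage-gated potassium channels, had 5.21, 5.13, 5.17 and 4.72 in combination tumors, against 7.46, 7.82, 7.86 and 7.45 in CD40 Ab tumors (-2.59 ± 0.14). The largest fall was that of Dynap, a membrane protein that binds dynactin, which was 19.6-fold lower (-4.29 ± 0.51, adjusted p = 0.00340). Several of the remaining genes are best known from neurons or transport. They were Synpr, a synaptic vesicle protein (-3.10), Rcan2, a regulator of calcineurin (-2.67), Nptx1, a neuronal pentraxin (-2.59), and Slc14a1, a urea transporter (-2.43). Itih2 (-2.47), Clca3a1 (-2.38) and Glod5 (-2.35) were also among the 12, with adjusted p from 0.00138 to 0.00340. Mcpt8, a protease of basophils, had 6.56, 6.07, 6.73 and 6.47 in combination tumors, against 9.49, 9.33, 8.19 and 8.17 in CD40 Ab tumors (-2.34 ± 0.31, adjusted p = 0.00554). All 12 calls held in each single-array omission.

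Genes of mitosis were lower in the combination in level, with few single calls. All 26 measured genes had a log2 difference below 0, with a median of -0.72 and a range of -0.96 to -0.43. Of these, 4 fell past the threshold, compared with 2.52% of all genes. In 23 of 26 the groups did not overlap, compared with 10.1% of all genes. Foxm1, a transcription factor of G2 and mitosis, had 6.75, 6.74, 6.90 and 6.54 in combination tumors, against 7.47, 7.49, 7.14 and 7.13 in CD40 Ab tumors (-0.57 ± 0.11, adjusted p = 0.0241). Kif2c, a microtubule depolymerase (-0.89, adjusted p = 0.0486), Birc5, a subunit of the chromosomal passenger complex (-0.80, adjusted p = 0.0449), and Cdc20, an activator of the anaphase-promoting complex (-0.65, adjusted p = 0.0479), lay close to the threshold. Plk1 (-0.80, adjusted p = 0.0550) and Mki67 (-0.48, adjusted p = 0.119) did not pass. The mean level over the list was 8.49 ± 0.39 in combination and 9.19 ± 0.24 in CD40 Ab tumors (SD, n = 4 each), and combination replicate 4 had the lowest level (7.94). Without that array the list median was -0.52 and 0 members passed, whereas without combination replicate 3 it was -0.84 and 10 passed. With muscle and skin levels as covariates the mitosis median was 0.12 and 0 members passed. None of 25 DNA replication genes passed, with a median of -0.14 (0.30 with the covariates).

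The promoter of Cdc20 is shown because it holds both elements that genes of mitosis are known to share, the cell cycle homology region (CHR, TTTGAA) and the CCAAT box (CCAAT). The stretch covers 80 bases before the RefSeq gene start (GRCm38.p6, chr4:118437344-118437423, minus strand), with the matches in capitals.
Cdc20: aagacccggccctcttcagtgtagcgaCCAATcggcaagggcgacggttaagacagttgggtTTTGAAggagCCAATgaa
Searched on both strands in the 250 bases before the start, TTTGAA was present in 9 of 21 mitosis genes with a promoter in the table and in 16% of all 32851 promoters. CCAAT was present in 17 of 21 and in 33.8% of all promoters. The counts of 21 are per gene, over all its promoters, and the percentages per promoter. These are descriptions of letters in a window. Of the passing genes with a promoter there, Kif2c held TTTGAA without CCAAT and Birc5 held neither.

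Most of the largest rises were genes of skeletal muscle. Of the 12 largest rises, 8 were in the muscle list, and Smpx, a small muscle protein, was another. Myh1, a fast myosin heavy chain, had signals of 9.73, 9.97, 9.49 and 10.44 in combination tumors, against 4.05, 3.23, 7.54 and 4.93 in CD40 Ab tumors (log2 difference 4.97 ± 0.77, adjusted p = 0.0104). Ttn, the giant sarcomere protein titin, rose by 4.61 ± 0.58 (adjusted p = 0.00471) and the calcium buffer Pvalb rose by 3.72 ± 0.49 (adjusted p = 0.00542). The other muscle genes among the 12 were Myh4, another fast myosin (4.59), the troponin genes Tnnc2 (4.34) and Tnnt3 (3.38), skeletal actin (Acta1, 3.44), the myosin light chain Myl1 (3.34) and Smpx (3.20), with adjusted p from 0.00337 to 0.0340. Col8a2, a chain of a short-chain collagen, rose by 3.26 ± 0.31 (adjusted p = 0.00163). Of 20 muscle genes, 18 rose, and in all 20 the groups did not overlap, compared with 7.26% of all genes. The mean level of the list lay between 7.85 and 9.27 in combination tumors, and between 4.77 and 6.43 in CD40 Ab tumors. It was 8.43 in MEKi and 6.14 in control tumors. In whole tumor pieces more muscle in a piece and more RNA per cell cannot be told apart. In the fit with muscle and skin levels as covariates, 578 of 672 rises and 432 of 459 falls kept their sign, and 88 rises and 41 falls were called again. Among the named genes these included Kcnab1, Hmga2, Slc14a1, Etv5, Dusp5, Spry2, Pamr1, Tspan33, Lmcd1, Mmp7, Tnfaip3, Il18 and Cldn5. That fit also draws on MEKi replicate 1, which is outside the 8 arrays. This tumor had a muscle level of 10.19, against 7.50 and 7.60 in the other MEKi tumors. Its mitosis level was 7.01, against 8.25 and 8.44. How far the values with covariates rest on this 1 tumor was not tested. Since muscle levels did not overlap between the groups, muscle and treatment cannot be fully told apart in that fit. Its covariates are the mean levels of the muscle and skin lists themselves. For members of these lists a loss of the call was therefore built in, and the counts include them.

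Among rises outside the muscle list, Pamr1, a secreted protein described in muscle regeneration, had the lowest adjusted p together with Tspan33. Pamr1 had signals of 8.54, 8.58, 8.54 and 9.12 in combination tumors, against 5.05, 5.23, 6.05 and 5.14 in CD40 Ab tumors (3.33 ± 0.22, adjusted p = 0.000288). Tspan33, a tetraspanin known from activated B cells, had 8.20, 8.70, 8.61 and 8.65 in combination tumors, against 6.14, 6.68, 6.42 and 6.55 in CD40 Ab tumors (2.09 ± 0.14, adjusted p = 0.000288). Both genes were above every CD40 Ab tumor in all 4 combination tumors. Mmp7, the epithelial matrix protease matrilysin, was 8.41-fold higher. It had 9.66, 9.98, 10.17 and 9.63 in combination tumors, against 6.28, 8.12, 6.37 and 6.38 in CD40 Ab tumors (3.07 ± 0.37, adjusted p = 0.00391). Pigr, the epithelial receptor that carries IgA and IgM across mucosa, rose by 2.54 ± 0.32 (adjusted p = 0.00445). Of 14 epithelial genes, Elf3, an epithelial ETS factor (0.97, adjusted p = 0.0157), and the tight junction gene Cldn4 (0.61, adjusted p = 0.0110) rose, while Krt19 had a log2 difference of 0.15 (adjusted p = 0.245). Of 10 mesenchymal genes, Snai2 (-0.77, adjusted p = 0.0288) and the N-cadherin gene Cdh2 (-0.50, adjusted p = 0.0467) fell. The call for Cdh2 was lost in each single-array omission and that for Snai2 in 6 of 8, whereas Elf3 and Cldn4 kept theirs. Against CD40 Ab tumors 1 and 2 alone, Snai2, Cdh2, Elf3 and Cldn4 did not pass (adjusted p from 0.0658 to 0.123), while Pigr did. With muscle and skin levels as covariates these 4 genes and Pigr did not pass (adjusted p from 0.0931 to 0.268). Their differences did not shrink in that fit. They were 3.22 ± 0.89 for Pigr, 1.67 for Elf3, 0.94 for Cldn4, -0.90 for Snai2 and -0.53 for Cdh2. Pamr1, Tspan33 and Mmp7 passed there.

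Some matrix and insulin-like growth factor (IGF) genes rose. All 22 fibroblast and matrix genes had a log2 difference above 0, with a median of 0.74, and 7 rose, compared with 3.69% of all genes. Ogn, a small leucine-rich proteoglycan, had signals of 6.58, 6.67, 7.13 and 6.68 in combination tumors, against 4.75, 2.96, 3.89 and 3.35 in CD40 Ab tumors (3.03 ± 0.33, adjusted p = 0.00230). Col1a1, the main chain of fibrillar collagen I, had 11.10, 10.80, 11.14 and 11.59 in combination tumors, against 10.49, 9.76, 9.91 and 9.69 in CD40 Ab tumors (1.19 ± 0.20, adjusted p = 0.0140). CD40 Ab replicate 1 was the highest of its group in both genes, and leaving it out gave 15 passing members. Without CD40 Ab replicate 2 or 4 or combination replicate 1, 2 or 4, 2 members passed, and without CD40 Ab replicate 3, 4 did. Tagln (1.99), Thbs2 (1.83), Acta2 (1.27) and Postn (0.94) also rose, with adjusted p from 0.0188 to 0.0427. Mmp2, a gelatinase of stromal cells, rose by 1.28 ± 0.22 (adjusted p = 0.0147). Against CD40 Ab tumors 1 and 2 alone the list median was 0.61 and 1 member passed, and with muscle and skin levels as covariates it was 0.36 and 0 passed.

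In the IGF list, 5 of 10 members rose, compared with 3.69% of all genes. None fell, and 2 of 10 had a difference below 0. Igf1 had 8.14, 8.12, 8.10 and 8.75 in combination tumors, against 7.36, 6.23, 6.89 and 6.44 in CD40 Ab tumors (1.55 ± 0.24, adjusted p = 0.0110). The binding proteins Igfbp2 (3.81 ± 0.69, adjusted p = 0.0183), Igfbp6 (1.59 ± 0.23, adjusted p = 0.00841) and Igfbp5 (0.69 ± 0.14, adjusted p = 0.0259) rose, as did the receptor gene Igf2r (0.56 ± 0.11, adjusted p = 0.0266). For Igfbp2 the lowest combination tumor (6.76) lay close to the highest CD40 Ab tumor (6.42). Its call was lost in 5 of 8 single-array omissions. Without combination replicate 1, 2 or 4, and against CD40 Ab tumors 1 and 2 alone, 2 members of the list passed. In the fit with muscle and skin covariates none passed, and Igf1 had a difference of 0.34 and Igfbp6 of 0.06.

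**Figure D2:**
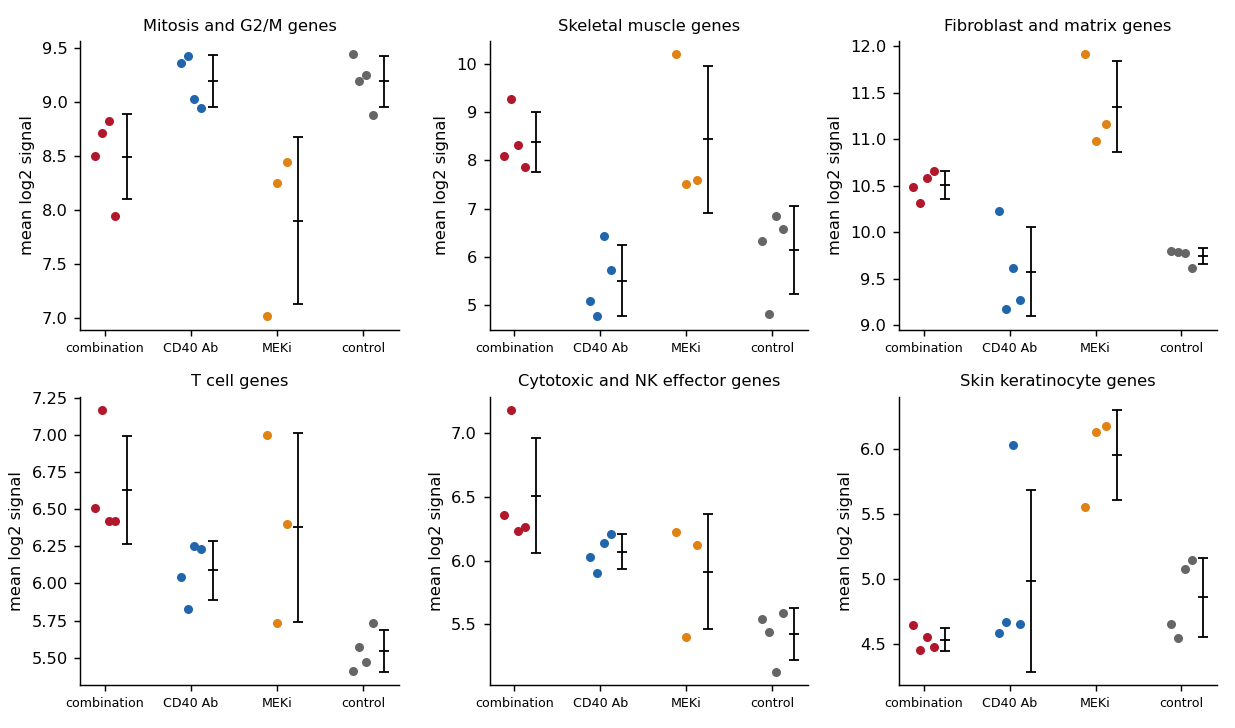
Mean log2 signal over the members of 6 gene lists (y axis) in single tumors of the combination, CD40 Ab, MEKi and control groups (x axis), with bars for mean ± SD. Muscle levels are at least 7.85 in combination tumors and at most 6.43 in CD40 Ab tumors, and combination replicate 2 is the highest of its group for T cell (7.17) and cytotoxic genes (7.18).

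Within the NF-kB pathway, 5 of 18 genes rose and none fell, compared with 3.69% of all genes that rose, and the list median was 0.20. The 5 genes were Nfkbia, Nfkbie and Tnfaip3, inhibitors of the pathway that NF-kB itself induces, Birc3, an inhibitor of apoptosis, and Tnf. Nfkbie had signals of 9.32, 9.61, 9.12 and 9.24 in combination tumors, against 8.61, 8.14, 8.13 and 8.26 in CD40 Ab tumors (log2 difference 1.04 ± 0.13, adjusted p = 0.00488). Birc3 had 10.13, 10.28, 10.07 and 10.26 in combination tumors, against 9.58, 9.43, 9.36 and 9.28 in CD40 Ab tumors (0.77 ± 0.083, adjusted p = 0.00225). For all 5 genes every combination tumor was above every CD40 Ab tumor. Tnfaip3 rose by 0.70 ± 0.082 (adjusted p = 0.00310), Tnf by 0.57 ± 0.078 (adjusted p = 0.00623) and Nfkbia by 0.56 ± 0.098 (adjusted p = 0.0155). All 5 calls held in each single-array omission, and 4 held against CD40 Ab tumors 1 and 2 alone. With muscle and skin levels as covariates Tnfaip3 passed (0.79 ± 0.12, adjusted p = 0.0146) and the list median was -0.00. Cd40 itself had 6.65, 7.36, 6.86 and 6.10 in combination tumors, against 6.68, 6.37, 6.50 and 6.46 in CD40 Ab tumors (0.24 ± 0.22, adjusted p = 0.573).

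The promoters of the 3 inhibitor genes are shown since these members moved together and each holds a match to the kB consensus, the sequence that NF-kB dimers bind. Matches are in capitals, and the stretches lie before the RefSeq gene start (GRCm38.p6): Tnfaip3 at chr10:19015411-19015550, minus strand, Nfkbia at chr12:55492648-55492737, minus strand, and Nfkbie at chr17:45555560-45555639, plus strand.
Tnfaip3: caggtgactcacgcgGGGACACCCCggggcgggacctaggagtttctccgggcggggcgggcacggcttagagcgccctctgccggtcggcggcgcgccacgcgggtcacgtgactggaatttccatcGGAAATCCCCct
Nfkbia: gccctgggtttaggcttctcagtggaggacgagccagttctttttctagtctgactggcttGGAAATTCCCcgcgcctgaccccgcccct
Nfkbie: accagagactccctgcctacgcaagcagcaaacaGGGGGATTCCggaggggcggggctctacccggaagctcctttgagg
Searched on both strands in the 250 bases before the start, this consensus was present in 5 of 13 genes of the list with a promoter in the table. It was present in 7.25% of all 32851 promoters. The first count is per gene, over all its promoters, and the second per promoter. The first capitals of Tnfaip3 match it on both strands. Another RefSeq promoter of Tnfaip3, within chr10:19011914-19012213, held no match in its 250 bases. Birc3 and Tnf, which also rose, held no match in this window.

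Chemokines and cytokines changed in both directions. Ccl2, which attracts monocytes, had signals of 9.79, 9.86, 9.02 and 9.75 in combination tumors, against 8.25, 7.90, 8.36 and 8.60 in CD40 Ab tumors (1.33 ± 0.20, adjusted p = 0.01002). Ccl17, a CCR4 ligand, rose by 1.05 ± 0.18 (adjusted p = 0.0136), and these were the 2 of 16 CC chemokines and receptors that passed (list median -0.21 with the covariates). The neutrophil chemokines Cxcl5 (1.04 ± 0.19, adjusted p = 0.0196) and Cxcl1 (0.91 ± 0.16, adjusted p = 0.0177) rose, 2 of 7 genes of that list. Both of these calls were lost without combination replicate 1. The T cell chemokines Cxcl9 (0.70, adjusted p = 0.190), Cxcl10 (0.97, adjusted p = 0.103) and Ccl5 (1.03, adjusted p = 0.0816) had positive differences that did not pass.

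Of 16 interleukins and growth factors, 5 rose and 2 fell. Tgfb2 had 7.77, 7.41, 7.41 and 7.48 in combination tumors, against 6.16, 5.88, 5.55 and 5.51 in CD40 Ab tumors, 3.35-fold higher (1.74 ± 0.15, adjusted p = 0.00109). Its relative Tgfb1 was slightly lower (-0.36 ± 0.075, adjusted p = 0.0291), and Tgfb3 was higher (0.77 ± 0.12, adjusted p = 0.0103). Il18, a cytokine that enhances interferon gamma release, had 10.06, 9.79, 9.83 and 10.02 in combination tumors, against 8.34, 8.66, 9.16 and 8.97 in CD40 Ab tumors (1.14 ± 0.16, adjusted p = 0.00736). The alarmin Il33 ran the other way, with 8.73, 8.87, 9.58 and 9.49 in combination tumors, against 11.43, 10.69, 10.17 and 10.54 in CD40 Ab tumors (-1.54 ± 0.28, adjusted p = 0.0182). The macrophage growth factor Csf1 rose by 0.66 ± 0.13 (adjusted p = 0.0242). In the fit with muscle and skin covariates 1 of the 16 passed, Il18, and Tgfb3 had a difference of 0.10.

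**Figure D3:**
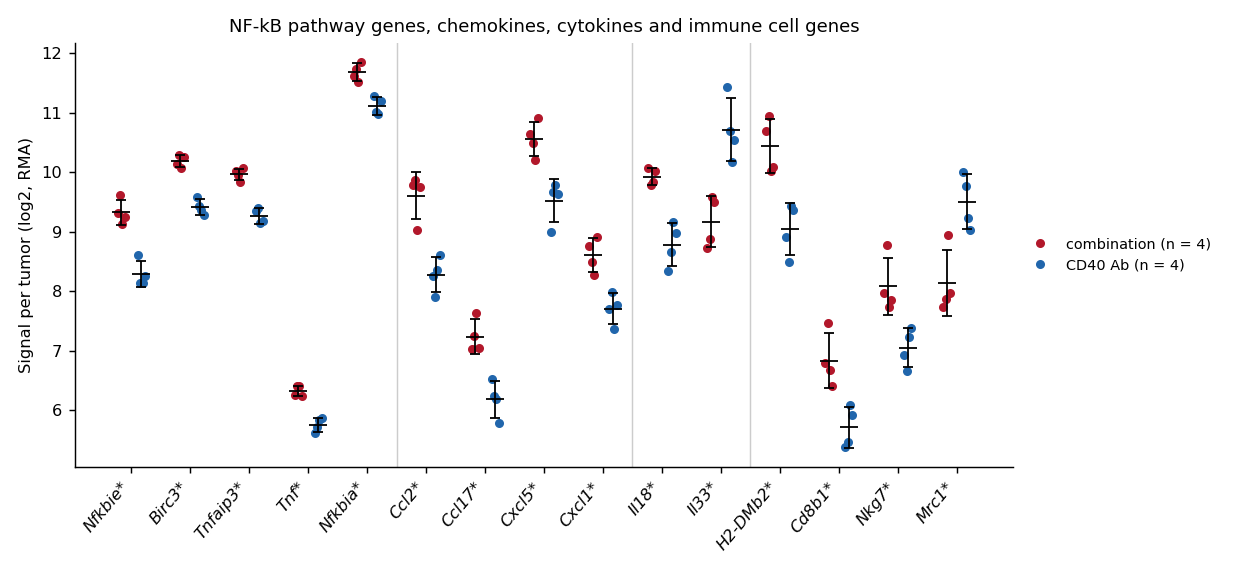
Log2 signal (y axis) of NF-kB pathway genes, chemokines, cytokines and immune cell genes (x axis) in combination (red) and CD40 Ab (blue) tumors, with points for single tumors, bars for mean ± SD and an asterisk for an adjusted p under 0.05. Il33 and Mrc1 are lower and the other genes higher in combination tumors.

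Antigen presentation genes had small positive differences and few calls. All 11 MHC class II genes had a log2 difference above 0 (median 0.60, and -0.23 with muscle and skin levels as covariates), and 2 rose. With the covariates neither passed, and 1 other member was lower. H2-DMb2, a chain of the DM complex that edits class II peptides, had signals of 10.69, 10.95, 10.01 and 10.09 in combination tumors, against 8.91, 8.49, 9.43 and 9.36 in CD40 Ab tumors (1.39 ± 0.26, adjusted p = 0.0205). Ctss, the protease that trims the invariant chain, rose by 0.47 ± 0.089 (adjusted p = 0.0206). Both calls were lost without combination replicate 1 or 2. The invariant chain gene Cd74 (0.61, adjusted p = 0.0761), the class II regulator Ciita (0.68, adjusted p = 0.0691) and H2-Aa (0.49, adjusted p = 0.122) did not pass. None of 15 MHC class I genes passed, and all 15 had a difference above 0 (median 0.20). H2-K1 had 13.37, 13.49, 13.38 and 13.39 in combination tumors, against 13.24, 13.12, 13.25 and 13.24 in CD40 Ab tumors (0.20 ± 0.061, adjusted p = 0.105). Of 14 interferon gamma response genes, the receptor gene Ifngr1 was the 1 that rose (0.47, adjusted p = 0.0342), and 0 of 23 type I interferon genes passed (median 0.09, and -0.13 with the covariates). The ligand gene Cd274 (PD-L1) had a difference of 0.33 ± 0.23 (adjusted p = 0.448).

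The promoter of H2-DMb2 is shown because class II genes share a Y box, an inverted CCAAT that NF-Y binds. The stretch lies at chr17:34145119-34145198 (GRCm38.p6, plus strand), with the match, ATTGG on this strand, in capitals.
H2-DMb2: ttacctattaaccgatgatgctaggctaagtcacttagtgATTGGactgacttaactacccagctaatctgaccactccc
CCAAT was present on either strand in 6 of 8 class II genes with a promoter in the table, and in the same 33.8% of all promoters as above. The first count is again per gene and the second per promoter. Ctss held none in this window.

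Few T cell and cytotoxic genes passed, and their levels were highest in combination replicate 2. Cd8b1, a chain of the CD8 co-receptor, had signals of 6.79, 7.47, 6.67 and 6.40 in combination tumors, against 5.38, 5.47, 6.09 and 5.91 in CD40 Ab tumors (1.12 ± 0.23, adjusted p = 0.0311). Bcl11b, a factor that maintains T cell identity (1.23 ± 0.22, adjusted p = 0.0194), and Nkg7, a granule protein of cytotoxic cells (1.03 ± 0.23, adjusted p = 0.0414), also rose. These were 2 of 15 T cell genes and 1 of 15 cytotoxic genes, compared with 3.69% of all genes that rose. In 6 of 15 T cell genes and 4 of 15 cytotoxic genes every combination tumor lay above every CD40 Ab tumor, compared with 7.26% of all genes. Differences above 0 were seen in 14 of 15 and 12 of 15. Cd3g (1.15, adjusted p = 0.0619), Cd8a (0.89, adjusted p = 0.0629), Cd3d (0.84, adjusted p = 0.121) and Ifng (0.59, adjusted p = 0.310) did not pass. Cd4 differed by 0.13 ± 0.11 (adjusted p = 0.551), Foxp3 by -0.085 ± 0.082 (adjusted p = 0.596) and Gzmb by 0.18 ± 0.28 (adjusted p = 0.746). Without combination replicate 2 the median of the T cell list was 0.24 with 1 call, and that of the cytotoxic list 0.15 with 0 calls, compared with 0.42 and 0.45 in all arrays. With muscle and skin levels as covariates these medians were -0.37 and -0.06, and none passed.

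Of 14 pan-macrophage genes, 4 rose, compared with 3.69% of all genes. Among them, Cd68, a lysosomal protein of phagocytes, had 8.85, 9.30, 8.86 and 8.91 in combination tumors, against 8.43, 8.27, 8.20 and 8.35 in CD40 Ab tumors (0.67 ± 0.11, adjusted p = 0.0125). The endotoxin co-receptor Cd14 (0.53, adjusted p = 0.0262) and the clearance receptor Mertk (0.45, adjusted p = 0.0197) rose too. In single-array omissions the call for Cd14 was lost in 4 of 8 and that for Mertk in 3 of 8. Mrc1, the mannose receptor and the only passing member of 14 M2-like markers, had 7.74, 7.87, 8.95 and 7.97 in combination tumors, against 10.00, 9.77, 9.23 and 9.02 in CD40 Ab tumors (-1.37 ± 0.29, adjusted p = 0.0331). Its call was lost in 6 of 8 single-array omissions. Arg1 had a difference of -0.02 ± 0.32 and Nos2 of 0.16 ± 0.11, and neither passed. The 14 M2-like markers had a median of 0.13, so Mrc1 did not stand for the list. With the covariates the median was -0.48 for pan-macrophage genes and -0.19 for M2-like markers, and none passed. In the lists of other cell types few members passed. The B cell kinase gene Blk rose by 1.30 ± 0.14 (adjusted p = 0.00257), the 1 of 11 B cell genes that did (median 0.13, and -1.15 with 5 members lower with the covariates). Prdm1, a factor of plasma cells, rose by 0.60 ± 0.14 (adjusted p = 0.0478), a call lost in 6 of 8 single-array omissions. The neutrophil gene S100a8 rose by 0.75 ± 0.17 (adjusted p = 0.0387), 1 of 2 that passed among 14 granulocytic genes, and had a difference of -0.32 with the covariates. Its call was lost in 7 of 8 single-array omissions. The endothelial junction gene Cldn5 was 2.99-fold lower (-1.58 ± 0.24, adjusted p = 0.00935). It was 1 of 13 endothelial genes that passed. Egln3, an oxygen-sensing hydroxylase induced by hypoxia, rose by 0.85 ± 0.12 (adjusted p = 0.00809), the 1 of 16 hypoxia and glycolysis genes that passed (median 0.06). Ivl, a keratinocyte envelope protein, fell by 2.05 ± 0.26 (adjusted p = 0.00470), while the mean level of the skin keratinocyte list was 4.46 to 4.65 in combination tumors and 4.59 to 6.03 in CD40 Ab tumors.

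**Figure D4:**
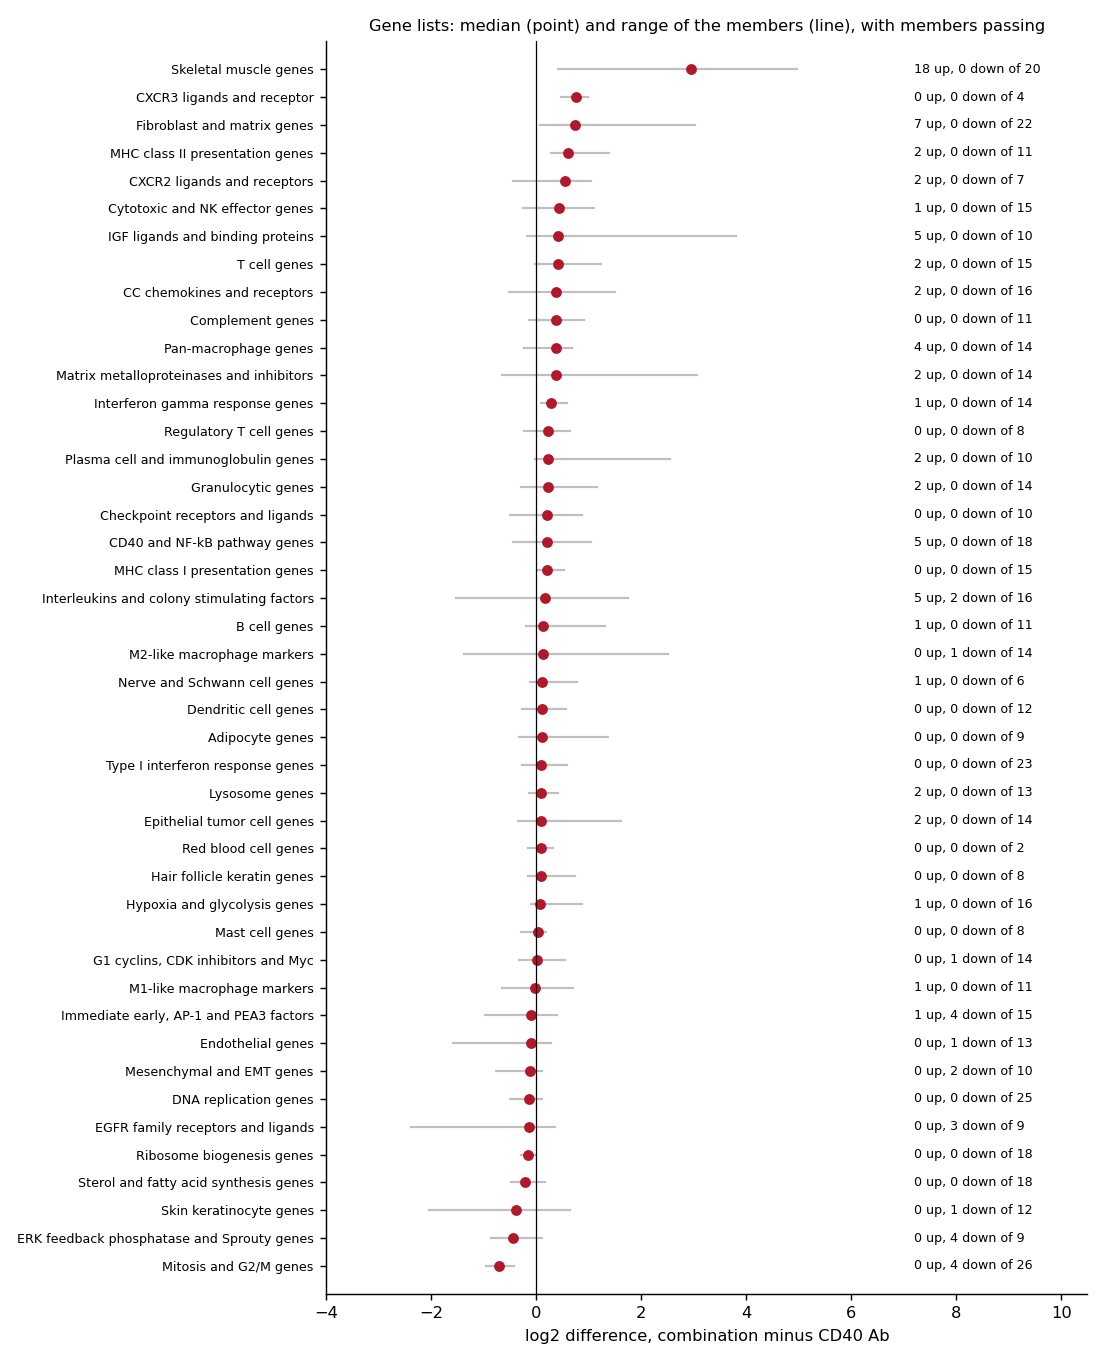
Log2 difference, combination minus CD40 Ab (x axis), for 44 gene lists (y axis), with points for list medians, lines for the range of the members and the number of members that passed at the right. The muscle list has the highest median (2.95) and the mitosis list the lowest (-0.72).

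Whether the effect of MEKi was the same with and without CD40 Ab was tested with the MEKi and control arrays, which share no array with the 8 above. MEKi against control called 1953 genes higher (10.7%) and 1894 lower (10.4%). Of the 672 genes that rose in the combination, 425 also rose there (63.2% of this list and 21.8% of the other), and of the 459 that fell, 297 also fell (64.7% and 15.7%). Called in the opposite direction were 4 of the rises and 0 of the falls. The interaction, the effect of MEKi with CD40 Ab minus its effect without it, passed for 829 of 18193 genes (4.56%). Among those called in the combination it passed for 69 of 672 rises (10.3%) and 51 of 459 falls (11.1%). That term contains the difference by which these genes were picked, so these 2 shares cannot be set against 4.56%. All 3 MEKi tumors carry numbers above 10000, so tumor number range and the effect of MEKi alone cannot be told apart from each other in this term. The tumors also differed in the levels of skin genes. Hair follicle keratin genes had a mean level of 3.70 to 5.05 in combination and 3.80 to 3.94 in CD40 Ab tumors, but of 7.93 to 8.22 in MEKi tumors. In control tumors it was 3.89 to 3.98 in replicates 1 to 3 and 7.06 in replicate 4, which is numbered above 10000. Skin keratinocyte genes were at 5.55 to 6.17 in MEKi and 4.55 to 5.15 in control tumors. The part of skin tissue in the interaction terms was not tested. Without MEKi replicate 3 it called 821 probe sets, without control replicate 2 it called 745 and without MEKi replicate 2 it called 2072, compared with 1441 (3.2%) in all arrays.

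Ereg and Btc had negative interaction terms. Ereg averaged 6.04 in combination and 7.56 in CD40 Ab tumors, whereas it averaged 7.71 in MEKi and 7.38 in control tumors (interaction -1.84 ± 0.21, adjusted p = 0.000855). For Btc the means were 6.18 in combination and 8.56 in CD40 Ab tumors, and 7.86 in MEKi and 8.44 in control tumors (interaction -1.80 ± 0.40, adjusted p = 0.0242). Dusp5 also had a negative term (-1.13 ± 0.21, adjusted p = 0.0104). Ereg, Btc and Dusp5 did not pass in MEKi against control, where Ereg and Dusp5 had differences of 0.32 and 0.27 and Btc of -0.58. Rcan2 (interaction -1.65) and Nptx1 (-1.77) had negative differences in both settings, of -1.02 and -0.82 in MEKi against control tumors. Dynap and Hmga2 fell with and without the antibody. Hmga2 was 8.38 in MEKi and 10.64 in control tumors, and its interaction was 0.01 ± 0.19 (adjusted p = 0.989).

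Lmcd1, a LIM domain protein that restrains GATA factors, rose with the antibody present. Its signals were 8.55, 8.85, 8.48 and 8.84 in combination tumors, against 6.71, 6.74, 6.95 and 6.68 in CD40 Ab tumors, while the means were 6.86 in MEKi and 7.02 in control tumors (interaction 2.08 ± 0.19, adjusted p = 0.000104). Blk (1.22 ± 0.27, adjusted p = 0.0245) and Cd68 (0.70 ± 0.17, adjusted p = 0.0365) also had positive terms. Of 14 granulocytic genes, 6 had a negative term that passed and none a positive one, compared with 4.56% of all genes in either direction. Skin keratinocyte genes (6 of 12) and hair follicle keratin genes (3 of 8) also had negative terms that passed and no positive ones. S100a8 averaged 8.71 in combination and 7.96 in CD40 Ab tumors, against a wider gap of 10.07 in MEKi and 7.37 in control tumors (interaction -1.95 ± 0.36, adjusted p = 0.0108). Lcn2, also of the granulocytic list (-2.25 ± 0.38, adjusted p = 0.00646), and the chemokine gene Cxcl1 (-0.94 ± 0.24, adjusted p = 0.0437) had the same sign. For the 5 NF-kB pathway genes that rose, the interaction lay between -0.27 and 0.13 and none passed, and 0 of 26 mitosis genes passed.

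**Figure D5:**
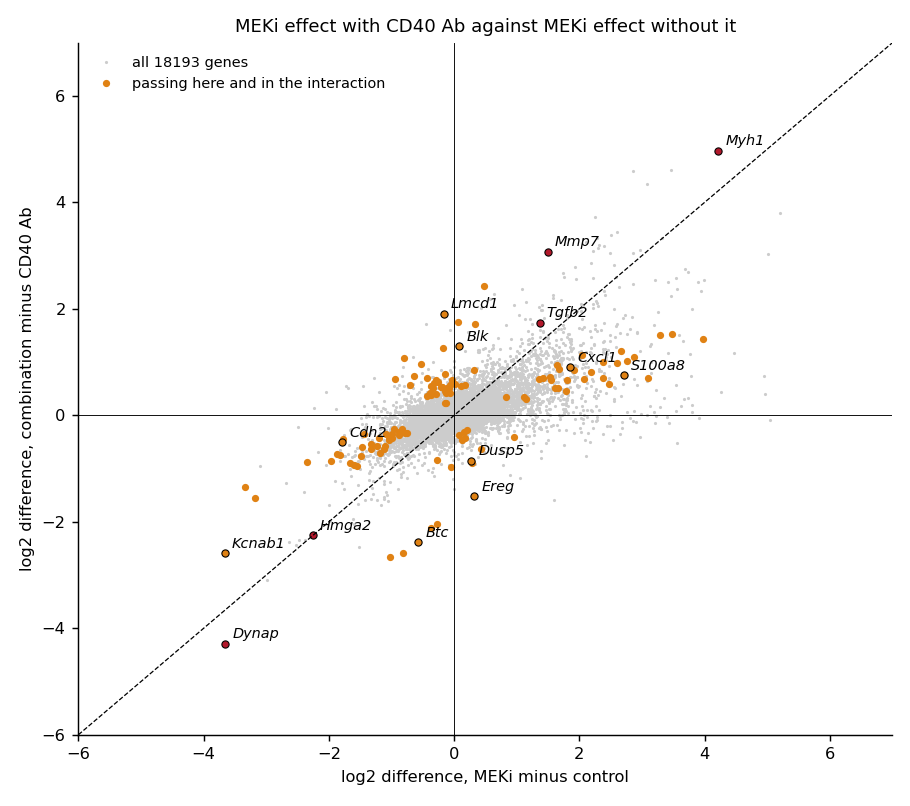
Log2 difference, combination minus CD40 Ab (y axis), against MEKi minus control (x axis) for all 18193 genes (grey), with genes past the threshold in both the combination comparison and the interaction in orange, and some named genes outlined in black. The dashed line marks equal effects. Btc, Ereg and Dusp5 lie below it and Lmcd1 and Blk above it, while Hmga2 lies on it.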

How the data were processed

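The authors deposited Affymetrix 3' array data of total RNA as log2 values, made by robust multi-array averaging (RMA, its version not given in the sources used here), which corrects background, normalizes by quantiles and summarizes each probe set. The table held 45101 probe sets, of which 64 controls were left out. Of the rest, 34945 had 1 gene symbol, 932 several and 9160 none. Where several probe sets named the same single gene, the brightest on average was used. Array medians were 5.16 to 5.24 over all 15 arrays, and the number of arrays limits the precision.

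The 4 combination and 4 CD40 Ab arrays were compared by limma 3.58.1 (R 4.3.3, moderated two-sided test, Benjamini-Hochberg over 45037 probe sets, threshold 0.05). The interaction used all 15 arrays. Each ± after a log2 difference is its SE. The groups and replicate numbers come from the labels, where each replicate is a separate tumor.

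Named genes were the 12 largest rises and falls among genes with non-overlapping groups, passing members of 44 lists with the largest changes, members with high signals that did not pass, 45 genes of interest and extremes of adjusted p or interaction. A selection of these is printed. Members and lists were chosen with earlier results of these data known, and the kB consensus was added after the data were seen. Promoters are from RefSeq (GRCm38.p6).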

Additional observations from a re-analysis of the deposited data

Results flagged for a closer look

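Among the mean levels of 44 gene lists in the 4 combination and the 4 CD40 Ab tumors, 7 of 88 had 1 tumor far from the other 3 of its group, where chance alone gives about 1 in 20. Combination replicate 2 stood apart in 4 lists. Its T cell genes averaged 7.17, against 6.42 to 6.51 in the other combination tumors, and its cytotoxic genes 7.18, against 6.23 to 6.36. It was the lowest of its group for EGFR family genes (6.77, others 6.94 to 6.95) and for epithelial genes (9.16, others 9.29 to 9.31). Combination replicate 1 had more hair follicle keratin signal (5.05, others 3.70 to 3.75). CD40 Ab replicate 3 had more skin keratinocyte signal (6.03, others 4.59 to 4.67), and CD40 Ab replicate 1 was highest for CD40 and NF-kB pathway genes (7.70, others 7.49 to 7.52).

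The effect of MEKi differed with and without CD40 Ab in 18 named genes, by the interaction term of the fit of 15 arrays. Positive terms, on the log2 scale, were those of Lmcd1 (2.08), Cdh2 (1.29), Blk (1.22), Kcnab1 (1.07), Cd68 (0.70), Jun (0.69) and Cdkn2b (0.65). Kcnab1, Cdh2 and Cdkn2b had negative differences in both settings, which were smaller with the antibody. Negative terms were those of Lcn2 (-2.25), S100a8 (-1.95), Ereg (-1.84), Btc (-1.80), Ivl (-1.78), Nptx1 (-1.77), Igfbp5 (-1.69), Rcan2 (-1.65), Dusp5 (-1.13), Cxcl1 (-0.94) and Spry4 (-0.88). For Lcn2, S100a8, Igfbp5 and Cxcl1 the differences were positive in both settings and smaller with the antibody. Spry4 had a difference of -0.43 in combination against CD40 Ab tumors and 0.45 in MEKi against control tumors.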

How the results depend on the processing

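The counts of calls moved with the tumors included and with the threshold, while the direction of the called genes changed in few settings. At an adjusted p under 0.01, 365 probe sets passed (233 higher, 132 lower; 146 genes higher and 79 lower), and with a 2-fold change 445 did (353 higher, 92 lower; 233 genes higher and 53 lower). Among tumors numbered under 10000, 973 passed (524 higher, 449 lower; 329 genes higher and 235 lower). With muscle and skin levels as covariates, 292 passed (158 higher, 134 lower; 98 genes higher and 87 lower). Without dim probe sets, which leaves fewer tests, 709 genes were lower. Leaving out 1 array at a time gave 933 to 1908 probe sets (605 to 1106 higher, 317 to 802 lower), 366 to 655 genes higher and 173 to 408 lower, and 745 to 2072 probe sets for the interaction (339 to 1072 higher, 404 to 1063 lower). The cause of these shifts was not tested.

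With a replicate block, 935 probe sets passed (609 higher, 326 lower; 331 genes higher and 166 lower), of which 311 of the 672 rises and 154 of the 459 falls were called again, and the interaction called 1171. Deviations of same-numbered tumors correlated at -0.2188, -0.05525, -0.1929 and 0.1361, and not every tumor correlated best with its own number, so the tumors share only a number.

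Of 117 named genes, 90 passed, of which 56 did so in every single-array omission and 34 lost the call at least once. Calls were lost by 31 genes without combination replicate 1, 30 without combination replicate 2, 27 without CD40 Ab replicate 2, 25 without combination replicate 4, 21 without CD40 Ab replicate 4, 19 without CD40 Ab replicate 3, 10 without CD40 Ab replicate 1 and 8 without combination replicate 3. Genes that lost it in at least 4 omissions were, besides those given above, Acta1, Acta2, Postn, Tagln, Thbs2, Igfbp5, Igf2r, Kif2c, Birc5, Cdc20, Foxm1, Cdkn2b, Csf1, Tgfb1, Ifngr1, Cd8b1, Bcl11b and Nkg7. Among tumors numbered under 10000, 30 no longer passed. With muscle and skin levels as covariates, 17 of the 90 passed and 73 did not. For Ogn the difference was then 0.39, and 21 of the 117 changed sign, none of which passed. Differences that were positive without them were -0.546 for Myh4, -0.834 for Ccl5, -0.752 for Cd3d, -0.481 for Gzmb, -0.326 for Mertk, -0.321 for Cd40, -0.318 for S100a8, -0.267 for Cd3g, -0.259 for H2-Aa, -0.239 for Cd8b1, -0.231 for Ctss, -0.208 for Ccl17, -0.178 for Cd4, -0.13 for Cd274, -0.109 for Cd8a and -0.102 for Csf1. Differences that were negative without them were 1.62 for Arg1, 0.201 for Birc5, 0.0986 for Plk1, 0.0893 for Mki67 and 0.0839 for Foxm1. Members of the muscle and skin lists, such as Myh4, were fitted there on a mean that contains them. For these members a loss of the call or a difference near or past 0 was built in. Genes with differences near 0 changed sign elsewhere. Ccnd1 had -0.00422 with array weights, -0.0325 after median centring and -0.0217 to 0.0233 in single-array omissions. Arg1 had 0.077 with array weights and -0.244 to 0.206 in omissions, and Gzmb had -0.0358 to 0.338.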
